A study of Homo sapiens with 24 samples.

Results

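SGK1 and NDRG1 were followed together with 7 other genes shared by steroid receptors, in prostate cancer cells with and without androgen. SGK1, NDRG1, TSC22D3, PER1, ZBTB16, KLF9, DUSP1, TIPARP and ERRFI1, which are known to be induced by both androgens and glucocorticoids, were taken by their symbol from a table of read counts, 9 of 60649 features, each on 1 row. The table covers 24 RNA-seq libraries of LNCaP, an androgen-responsive human prostate cancer line, in 8 groups of 3, which the labels describe as biological triplicates. In study 1 the cells carried an empty vector (EV) or a construct for WDR77-peptide 3 (P3), a peptide of the transcriptional coregulator WDR77. In study 2 they carried a non-targeting siRNA (siCtrl) or siRNAs to WDR77 (siWDR77). Every arm was kept in androgen-deprived medium and given 5 nM of R1881, a synthetic androgen, or its ethanol vehicle for 48 h. Groups are named by arm and treatment (EV_vehicle, EV_R1881 and so on), and libraries by their sample number (S1). Transfection was transient in all arms, and the share of cells that took up a construct is not given in the sources used here. No glucocorticoid was given to any group.

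Steroid hormones act through related transcription factors that, once bound by their steroid, can recognise the same palindromic DNA element, so that one gene can answer to several steroids. SGK1 is a kinase known from corticosteroid control of sodium transport, and NDRG1 is a stress and differentiation protein that SGK1 phosphorylates. Many glucocorticoid targets are known to respond to androgen in LNCaP cells.

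Depth ran from 16665915 to 24260446 counts per library. Mitochondrially encoded genes took 5.15% to 6.3% of the counts, except for 8.4% in siCtrl_vehicle S35, and the responses in siCtrl are also given without that library. WDR77 lay at 45 and 65.7 CPM (reads of a gene scaled to library size) in siCtrl_vehicle and siCtrl_R1881 and at 13.2 and 14.3 CPM in the siWDR77 groups. Luminal prostate markers were high throughout (KRT8 at 451 CPM or more, HOXB13 at 452 CPM or more), while the group means of KRT5, TP63, PTPRC, DCN, COL1A2, PECAM1 and CHGA did not exceed 0.0454 CPM, and LUM did not exceed 0.456 CPM. Of the other markers of basal, fibroblast, endothelial and neuroendocrine cells, COL1A1 (7.30 to 22.7 CPM), VWF (4.35 to 16.9 CPM), SYP (2.19 to 6.76 CPM) and KRT14 (0.742 to 8.06 CPM) were present at low levels.

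Of the receptor genes for corticosteroids and progesterone, NR3C2 had the highest level per length in EV_vehicle, and NR3C1 fell with R1881 in EV, siCtrl and siWDR77 cells. Per kilobase of exon EV_vehicle held 2.10 CPM per kb of NR3C2, 0.178 of NR3C1 and 0.123 of PGR. NR3C1, the glucocorticoid receptor gene, held 34, 30 and 34 reads in the EV_vehicle libraries, or 1.63 ± 0.353 CPM (mean ± SD, n = 3 libraries, as for every mean below), and 12, 3 and 6 reads in EV_R1881.

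The NR3C1 reads were lower in every EV_R1881 than in every EV_vehicle library, and the difference passed the test in both control arms (log2 fold change ± SE of -1.98 ± 0.45, adjusted p = 0.000241 in EV, and -2.66 ± 0.46, adjusted p = 2.67e-05 in siCtrl). NR3C2, the mineralocorticoid receptor gene, was at 13.9 ± 2.08 CPM in EV_vehicle and 9.82 ± 1.22 CPM in EV_R1881, a fall of 0.51 ± 0.12 (log2, adjusted p = 0.000656). PGR, the progesterone receptor gene, had group means under 2 CPM in all 8 groups. In P3 cells the difference in NR3C1 with R1881 did not pass the test (log2 -0.72 ± 0.39, adjusted p = 0.212), and the change of its response against EV was not called either (1.26 ± 0.60, adjusted p = 0.133).

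**Figure D1:**
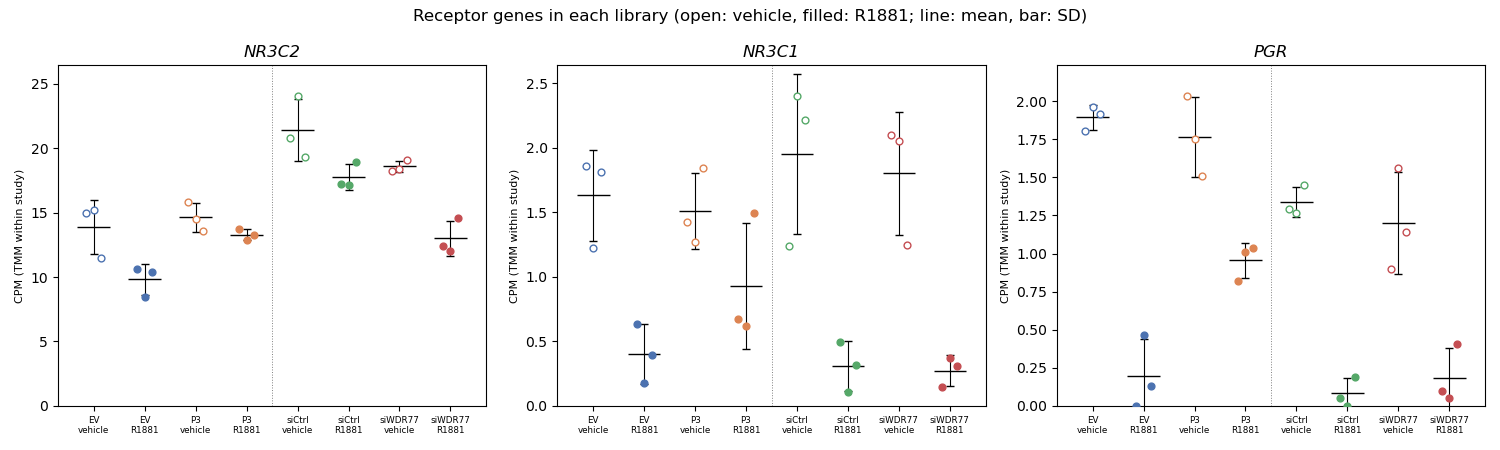
Levels of 3 receptor genes in every library, in CPM on axes that start at 0, with groups along the x axis (open points vehicle, filled points R1881, line the mean, bar the SD of 3 libraries). Group means of NR3C1 do not exceed 1.95 CPM, and its filled points lie below the open ones in EV, siCtrl and siWDR77.

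R1881 raised 8 of the 9 genes in both control arms, NDRG1 and ERRFI1 most and TSC22D3 least, and KLF9 passed the test in neither. Calls were made at adjusted p under 0.05 (Benjamini-Hochberg, edgeR) over all genes tested (17772 in study 1 and 17893 in study 2), and all 9 genes passed the filter on low counts in both studies. In EV 51.4% of all genes were called, 24.9% as higher and 26.4% as lower, and in siCtrl 51.1% were called, 25.7% as higher and 25.4% as lower. The median log2 fold change of the 9 genes was 1.63 in EV and 1.63 in siCtrl, beside medians over all genes of -0.041 and -0.045. The 9 genes were chosen with earlier results of these data known, so this contrast is not independent of the data. RNA came from whole wells, so a change in RNA per cell and a change in the share of responding cells cannot be told apart.

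NDRG1 and SGK1, the substrate and its kinase, differed widely in the size of their response. NDRG1 (chromosome 8, 133237171 to 133302022, minus strand, GRCh38, GENCODE 29) was read at 132, 150 and 143 CPM in EV_vehicle and at 2317, 2362 and 2485 CPM in EV_R1881. The lowest R1881 library thus lay far above the highest vehicle library. It rose 16.9-fold in EV (log2 4.08 ± 0.063, adjusted p = 1.17e-34), and only 0.49% of the genes tested had a larger rise.

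In study 2 NDRG1 read 75.5, 82.3 and 69.5 CPM in siCtrl_vehicle and 1530, 1571 and 1317 CPM in siCtrl_R1881, with S8 the lowest of the hormone group. Again the groups were far apart. The rise was 19.4-fold (log2 4.28 ± 0.077, adjusted p = 4.49e-23), and 0.637% of genes rose more. SGK1 (chromosome 6, 134169246 to 134318112, minus strand) was a low transcript, read at 5.80, 4.82 and 3.20 CPM in EV_vehicle and 12.3, 16.7 and 15.5 CPM in EV_R1881.

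Its vehicle libraries were widely spread, yet no R1881 library reached down to them. SGK1 rose 3.21-fold in EV (log2 1.68 ± 0.16, adjusted p = 9.87e-12). In siCtrl it read 8.05, 8.24 and 8.50 CPM with vehicle and 15.7, 15.5 and 15.3 CPM with R1881. Both groups were tight and did not overlap, and the rise was 1.87-fold (log2 0.90 ± 0.11, adjusted p = 3.05e-07).

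Per kilobase of exon, where levels of different genes can be set side by side, EV_R1881 cells held 243 CPM per kb of NDRG1 and 1.48 CPM per kb of SGK1. In EV_vehicle the order of the 9 genes ran from KLF9 (20.3 CPM per kb) through NDRG1 (14.4), ZBTB16 (13.4), DUSP1 (13.2), TSC22D3 (9.09), ERRFI1 (8.51), PER1 (2.34) and TIPARP (1.73) to SGK1 (0.461). With R1881 KLF9 passed from the first place to the fifth, at 20.4 CPM per kb, behind NDRG1, ERRFI1 (89.2), ZBTB16 (41.4) and DUSP1 (31.1). SGK1 stayed last of the 9 in all 8 groups on this scale.

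**Figure D2:**
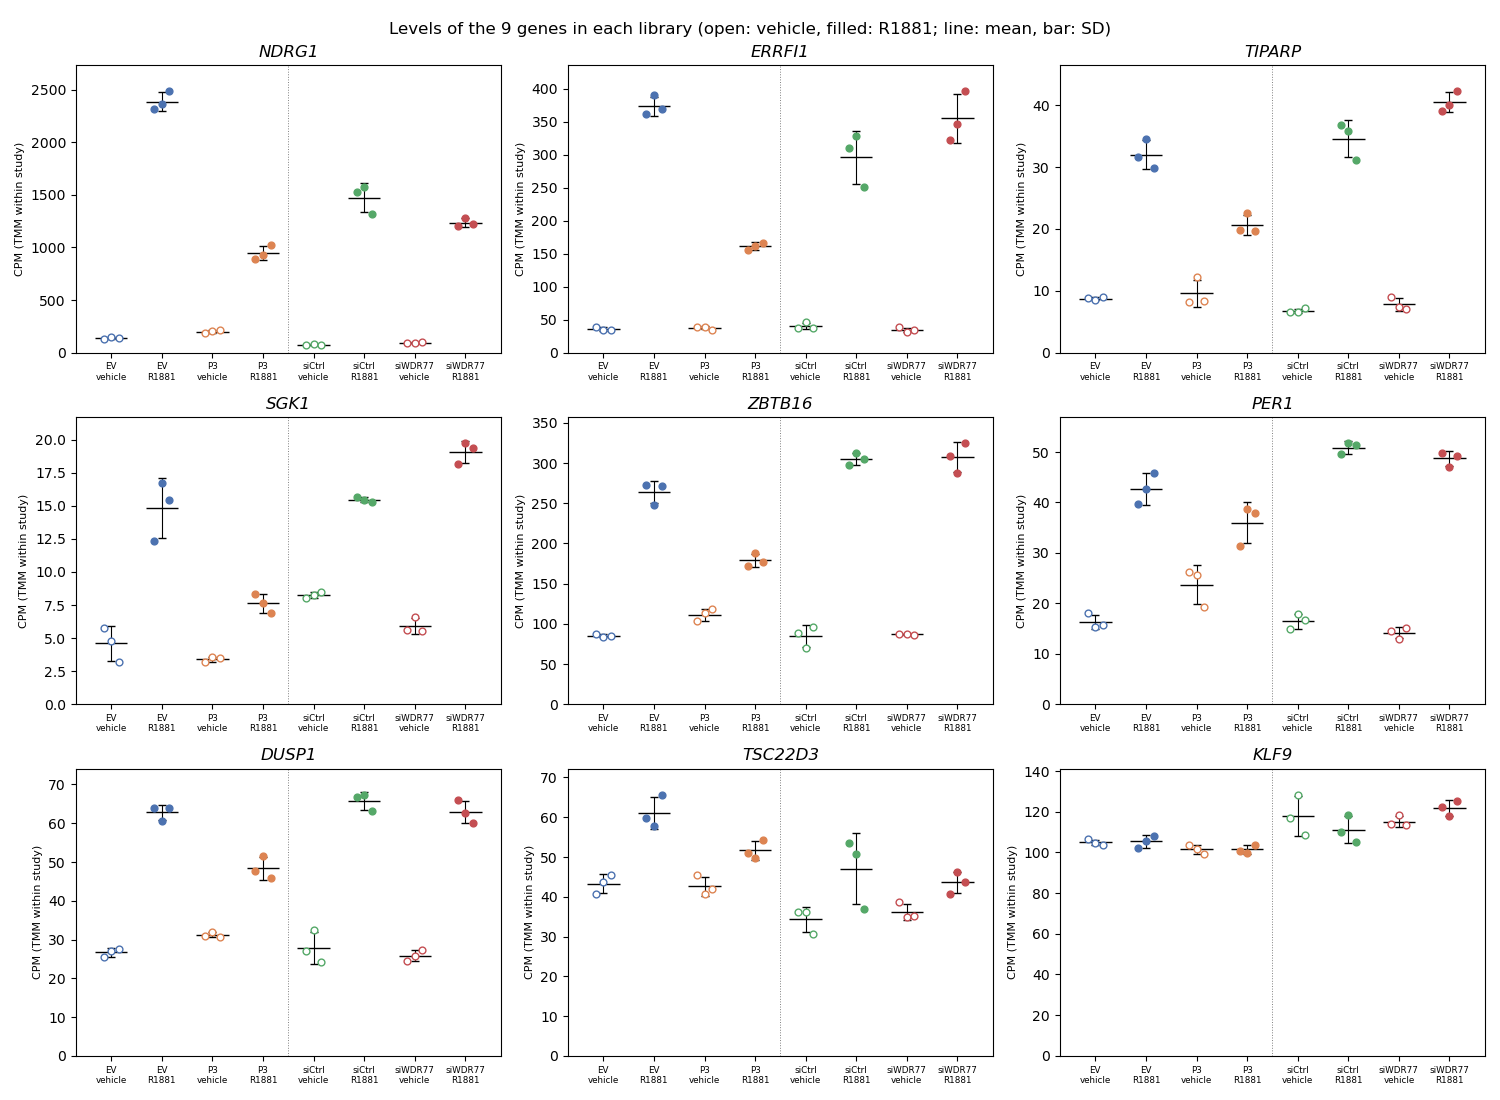
Levels of the 9 genes in all 24 libraries, in CPM on axes that start at 0 (open points vehicle, filled points R1881, line the mean, bar the SD of 3 libraries, dotted line between the studies). In 8 panels the filled points lie above the open ones of the same arm, with NDRG1 going from 132 to 150 CPM up to 2317 to 2485 CPM in EV, and in the KLF9 panel they overlap in EV.

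The 4 transcriptional regulators of the set split from strong induction to none. ZBTB16 encodes PLZF, a zinc finger repressor (chromosome 11, 114059593 to 114250676, plus strand). It was at 87.6, 83.5 and 84.5 CPM in EV_vehicle and at 272, 248 and 272 CPM in EV_R1881, and at 88.7, 69.4 and 95.7 CPM in siCtrl_vehicle and 297, 313 and 305 CPM in siCtrl_R1881. The lowest vehicle value of study 2 was that of S35, and no library with R1881 overlapped those without. ZBTB16 rose 3.10-fold in EV (log2 1.63 ± 0.057, adjusted p = 6.24e-26) and 3.61-fold in siCtrl (log2 1.85 ± 0.085, adjusted p = 1.13e-12).

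PER1, a repressor arm of the circadian clock (chromosome 17, 8140472 to 8156506, minus strand), read 18, 15.4 and 15.8 CPM in EV_vehicle and 39.6, 42.6 and 45.8 CPM in EV_R1881. In siCtrl it went from 14.9, 17.9 and 16.6 CPM to 49.5, 51.8 and 51.4 CPM. Every R1881 library exceeded every vehicle library of its study's control arm. The rise was 2.61-fold in EV (log2 1.38 ± 0.10, adjusted p = 2.49e-13) and 3.09-fold in siCtrl (log2 1.63 ± 0.084, adjusted p = 2.21e-14).

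TSC22D3 encodes GILZ, an anti-inflammatory leucine zipper protein used as a readout of glucocorticoids (chromosome X, 107713221 to 107777342, minus strand). Its libraries read 40.7, 43.7 and 45.5 CPM in EV_vehicle and 59.9, 57.8 and 65.6 CPM in EV_R1881. In siCtrl they read 36.1, 36.2 and 30.7 CPM with vehicle and 53.6, 50.8 and 37 CPM with R1881. The groups did not overlap in EV, and in siCtrl S8 with R1881 stood less than 1 CPM above the highest vehicle library. The rise was 1.41-fold in EV (log2 0.50 ± 0.070, adjusted p = 9.42e-08) and 1.38-fold in siCtrl (log2 0.46 ± 0.11, adjusted p = 0.00183).

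KLF9, a zinc finger factor that is a standard glucocorticoid target in other cells (chromosome 9, 70384597 to 70414624, minus strand), read 106, 105 and 104 CPM in EV_vehicle and 102, 106 and 108 CPM in EV_R1881. In siCtrl it read 117, 128 and 109 CPM with vehicle and 110.0, 118 and 105 CPM with R1881. The groups overlapped in both arms. Its log2 fold change was 0.0042 ± 0.054 in EV (adjusted p = 0.956) and -0.085 ± 0.064 in siCtrl (adjusted p = 0.28). An induction of KLF9 by R1881 was not detectable in these libraries.

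The 3 feedback genes all rose. ERRFI1 encodes MIG6, an inhibitor of EGFR family kinases (chromosome 1, 8004404 to 8026308, minus strand), and read 38.4, 34 and 34.5 CPM in EV_vehicle and 361, 390 and 369 CPM in EV_R1881. In siCtrl it read 37.9, 45.7 and 37.4 CPM with vehicle and 309, 328 and 251 CPM with R1881, the last again in S8. Vehicle and hormone libraries were far apart in both studies. ERRFI1 rose 10.5-fold in EV (log2 3.39 ± 0.062, adjusted p = 8.25e-36) and 7.35-fold in siCtrl (log2 2.88 ± 0.13, adjusted p = 2.79e-09).

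TIPARP, an ADP-ribosyltransferase that represses the aryl hydrocarbon receptor (chromosome 3, 156673235 to 156706770, plus strand), read 8.75, 8.53 and 8.95 CPM in EV_vehicle and 31.6, 34.6 and 29.9 CPM in EV_R1881. In siCtrl it went from 6.56, 6.56 and 7.13 CPM to 36.8, 35.8 and 31.2 CPM. No hormone library came near a vehicle library. The rise was 3.67-fold in EV (log2 1.87 ± 0.12, adjusted p = 3.17e-17) and 5.12-fold in siCtrl (log2 2.36 ± 0.11, adjusted p = 2.07e-15).

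DUSP1, a phosphatase that switches off MAP kinases (chromosome 5, 172768090 to 172771195, minus strand), read 25.5, 27.1 and 27.6 CPM in EV_vehicle and 64.0, 60.7 and 63.9 CPM in EV_R1881. In siCtrl it went from 27.1, 32.4 and 24.1 CPM, with S35 the highest, to 66.7, 67.3 and 63.2 CPM. All hormone libraries lay above all vehicle libraries of their arm. It rose 2.35-fold in EV (log2 1.23 ± 0.071, adjusted p = 1.41e-18) and 2.36-fold in siCtrl (log2 1.24 ± 0.086, adjusted p = 7.16e-12). ZBTB16, DUSP1, TIPARP and ERRFI1 each overlap a noncoding gene on the other strand, TSC22D3 overlaps NCBP2L on the other strand and PER1 shares its strand with AC129492.3. The span of SGK1 holds RPS29P32, RNA5SP218 and RF00019 on the other strand and the pseudogene KRT8P42 on its own strand. Since the strand setting of the counting is not given in the sources used here, reads of such pairs cannot be told apart.

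Without S35 the same 8 genes were called higher in siCtrl, where 48% of 18444 genes were called. NDRG1 then rose by 4.34 ± 0.076 on the log2 scale, ERRFI1 by 2.97 ± 0.14, TIPARP by 2.33 ± 0.12, ZBTB16 by 1.72 ± 0.063, PER1 by 1.68 ± 0.092, DUSP1 by 1.36 ± 0.081, SGK1 by 0.89 ± 0.13 and TSC22D3 by 0.49 ± 0.13 (largest adjusted p = 0.00377, for TSC22D3). KLF9 was at -0.027 ± 0.063 (adjusted p = 0.754).

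**Figure D3:**
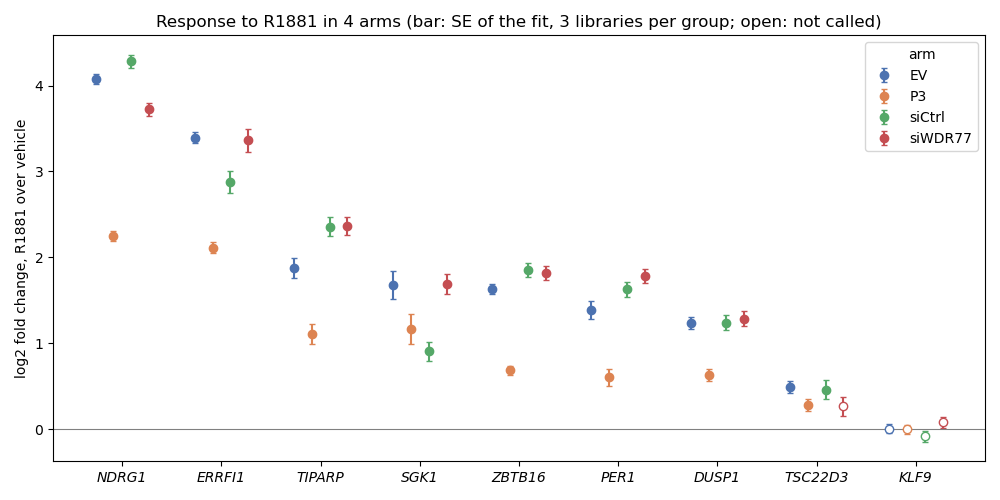
Log2 fold change of R1881 over vehicle for the 9 genes in the 4 arms, with the SE of the fit as bars and open points where the adjusted p was not under 0.05. NDRG1 lies at 4.08, 2.25, 4.28 and 3.72 in EV, P3, siCtrl and siWDR77, KLF9 lies near 0 in all 4, and the P3 points lie below the EV points for the 8 genes that rose in EV.

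The start regions of the genes were read to set their sequence beside these responses. RefSeq promoters (GRCh38.p14) matched 7 of the 9 genes by symbol, all but NDRG1 and ZBTB16. The 250 bases before the start were searched on both strands for 5 motifs. Only 1 entry was read per symbol. For SGK1, TSC22D3, PER1 and TIPARP that window lies inside the gene's annotated span, so the region before the outermost end of these genes was not searched. The palindromic steroid response element, AGAACA and TGTTCT with NNN between them, was in none of the 7 and in 0.00285% of 35116 promoters of the same length, and its left arm AGAACA was in none of the 7 and in 12.4% of promoters. The dioxin response core GCGTG, the aryl hydrocarbon receptor's motif, was in none of the 7 and in 32.2% of promoters. CACGTG, the E-box read by clock factors, was in PER1 and DUSP1 and in 6.34% of promoters, and TGACGTCA, the cAMP response element, was in DUSP1 and in 1.65% of promoters.

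Promoters of 4 genes are shown 5′ to 3′ on the gene's strand, ERRFI1 as the most induced gene with an entry, KLF9 as the gene that did not respond, and PER1 and DUSP1 as those with a motif, which is in capitals. They lie at chr1:8026310-8026559, chr9:70414658-70414907, chr17:8152405-8152654 and chr5:172771196-172771445, all on the minus strand.
ERRFI1: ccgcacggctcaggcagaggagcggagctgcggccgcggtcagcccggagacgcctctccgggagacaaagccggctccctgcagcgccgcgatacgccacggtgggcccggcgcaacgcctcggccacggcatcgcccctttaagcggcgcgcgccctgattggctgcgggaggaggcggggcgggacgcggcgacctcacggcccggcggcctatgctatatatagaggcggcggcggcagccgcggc
KLF9: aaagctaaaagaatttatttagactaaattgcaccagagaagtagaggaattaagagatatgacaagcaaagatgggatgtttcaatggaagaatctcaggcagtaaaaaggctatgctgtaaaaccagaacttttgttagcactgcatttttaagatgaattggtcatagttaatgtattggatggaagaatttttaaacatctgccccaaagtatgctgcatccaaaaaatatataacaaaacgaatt
PER1: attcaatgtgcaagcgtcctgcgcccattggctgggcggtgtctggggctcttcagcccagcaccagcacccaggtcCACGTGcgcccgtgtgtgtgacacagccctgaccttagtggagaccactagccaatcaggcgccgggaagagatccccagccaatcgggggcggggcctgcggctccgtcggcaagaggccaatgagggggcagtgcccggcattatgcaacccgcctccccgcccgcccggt
DUSP1: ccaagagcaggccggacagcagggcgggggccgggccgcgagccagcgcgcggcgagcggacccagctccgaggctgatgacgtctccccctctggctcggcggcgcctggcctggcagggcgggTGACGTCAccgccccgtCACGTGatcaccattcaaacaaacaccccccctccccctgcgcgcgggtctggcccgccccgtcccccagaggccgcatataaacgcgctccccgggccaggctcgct
In PER1 the E-box began 173 bases before the start. In DUSP1 the cAMP element began 125 and the E-box 108 bases before it. The GC content was 75.2% in ERRFI1, 74.4% in DUSP1, 67.2% in PER1 and 32.4% in KLF9, beside a median of 58% over all promoters. TIPARP, which rose, was also low at 38%, in its window inside the gene.

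In cells with the P3 peptide 8 of the 9 genes rose with R1881, and for 6 of them the rise was smaller than in EV by the test of the difference. In P3 21% of all genes were called, 13% as higher and 7.96% as lower, and the 9 genes had a median log2 fold change of 0.68 beside -0.020 over all genes. KLF9 read 101 ± 2.38 CPM with vehicle and 101 ± 2.19 CPM with R1881. The comparisons of P3 and EV share the same EV libraries with the response in EV given above.

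Some of the genes differed between P3 and EV in vehicle, and nearly all of them differed with R1881. In vehicle 4 genes were higher in P3 than in EV, where 15.8% of all genes were called, 7.93% as higher and 7.88% as lower, and none was lower. In R1881 8 genes were lower in P3 than in EV, where 37% of all genes were called, 18.1% as higher and 18.9% as lower. The change of the response, which is the response in P3 minus that in EV, passed the test as negative for 6 of the 9 genes, where 22.6% of all genes were called, 11.5% as positive and 11.1% as negative.

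NDRG1 differed between P3 and EV in both treatments. Its P3_vehicle libraries read 183, 200 and 214 CPM and its P3_R1881 libraries 892, 925 and 1020.5 CPM. All 3 vehicle values lay above the EV_vehicle values (132 to 150 CPM), and all 3 hormone values lay far below those of EV_R1881 (2317 to 2485 CPM). The difference to EV was 0.49 ± 0.058 on the log2 scale in vehicle (adjusted p = 1.84e-07) and -1.34 ± 0.056 in R1881 (adjusted p = 5.42e-20), and the response fell by 1.83 ± 0.081 (adjusted p = 4.40e-19), from 16.9-fold to 4.74-fold.

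SGK1 in P3 read 3.20, 3.54 and 3.47 CPM with vehicle and 8.31, 7.67 and 6.89 CPM with R1881. The vehicle values overlapped those of EV, which were wider, and the hormone values all lay below those of EV_R1881. The difference to EV was -0.43 ± 0.18 (log2, adjusted p = 0.101) in vehicle and -0.95 ± 0.15 (adjusted p = 3.30e-06) in R1881. Its response was 2.24-fold in P3, a log2 difference to EV of -0.52 ± 0.24, which did not pass the test (adjusted p = 0.12) but did so without EV_vehicle S1 (-0.74, adjusted p = 0.0313). Without EV_vehicle S29, the lowest SGK1 value of its group, the vehicle difference passed instead (-0.61, adjusted p = 0.0259).

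Among the regulators, ZBTB16 and PER1 were also higher than in EV with vehicle and lower than in EV with R1881. ZBTB16 read 103, 113 and 118 CPM in P3_vehicle and 172, 188 and 177 CPM in P3_R1881. These ranges lay inside the span from EV_vehicle to EV_R1881 without touching either. The differences to EV were 0.39 ± 0.057 in vehicle (log2, adjusted p = 6.12e-06) and -0.56 ± 0.055 in R1881 (adjusted p = 4.85e-11), and the response changed by -0.95 ± 0.080 (adjusted p = 1.56e-12).

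PER1 read 26.2, 25.7 and 19.2 CPM in P3_vehicle and 31.4, 38.7 and 37.9 CPM in P3_R1881. The vehicle values were all above those of EV, and the hormone values were all below those of EV_R1881, the nearest pair being 38.7 and 39.6 CPM. The larger of the differences was that in vehicle, 0.53 ± 0.11 (log2, adjusted p = 0.000797), and the difference in R1881 was -0.25 ± 0.098 (adjusted p = 0.0482). The latter call was lost with DESeq2 (adjusted p = 0.0505) and without EV_R1881 S2, EV_R1881 S30 or P3_R1881 S20 (adjusted p = 0.0528, 0.181 and 0.199). The response of PER1 changed by -0.78 ± 0.15 (adjusted p = 0.000103).

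TSC22D3 read 45.4, 40.6 and 41.9 CPM in P3_vehicle and 51.1, 49.6 and 54.3 CPM in P3_R1881. The vehicle values overlapped those of EV_vehicle, and the hormone values all lay below those of EV_R1881. With R1881 it was lower than in EV (log2 -0.24 ± 0.069, adjusted p = 0.00537), and its change of response was -0.22 ± 0.099 (adjusted p = 0.116), which passed without EV_R1881 S2, EV_vehicle S29 or P3_vehicle S33 (adjusted p = 0.0288, 0.042 and 0.0407). Its rise within P3, log2 0.28 ± 0.070, lost its call with all 24 libraries in 1 fit (adjusted p = 0.0535).

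Of the feedback genes, ERRFI1 read 38.3, 38.9 and 34.8 CPM in P3_vehicle and 155, 162 and 167 CPM in P3_R1881. Vehicle values overlapped those of EV, and each hormone value was less than the lowest of EV_R1881 (361 CPM) by a wide margin. The difference to EV was 0.067 ± 0.064 in vehicle (log2, adjusted p = 0.519) and -1.21 ± 0.055 in R1881 (adjusted p = 1.22e-20), and the response changed by -1.28 ± 0.084 (adjusted p = 1.55e-15).

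TIPARP read 8.13, 12.2 and 8.41 CPM in P3_vehicle and 19.8, 22.6 and 19.6 CPM in P3_R1881, and its response changed by -0.77 ± 0.17 (log2, adjusted p = 0.000502). DUSP1 read 31.0, 31.9 and 30.7 CPM in P3_vehicle and 47.8, 51.4 and 45.8 CPM in P3_R1881, and its response changed by -0.60 ± 0.10 (adjusted p = 8.88e-06). For both genes all P3_R1881 libraries were below all EV_R1881 libraries. DUSP1 was also higher than EV in vehicle (0.22 ± 0.073, adjusted p = 0.0319), a call that was lost without EV_vehicle S1 or S15 or without P3_vehicle S19, S33 or S5 (adjusted p from 0.0541 to 0.11), with all 24 libraries in 1 fit (0.0827) and with no filter (0.0937).

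As a share of the log2 response in EV, P3 cells kept 69.0% for SGK1, 62.3% for ERRFI1, 59.0% for TIPARP, 56.3% for TSC22D3, 55.1% for NDRG1, 51.2% for DUSP1, 43.7% for PER1 and 41.9% for ZBTB16. These shares are given without error, and differences between genes were not tested. Other genes raised at least 2-fold by R1881 in siCtrl, the control arm of the other study, numbered 1170 without the 9, and their median change of response in P3 was -0.72, with 63.0% called negative. The median of the 9 was -0.77. Counts assigned to WDR77 differed between these arms with R1881. Reads from the construct for the WDR77 peptide, if any, could not be told apart from those of the gene. WDR77 read 94.8 ± 5.61 CPM in P3_R1881 and 60.8 ± 2.84 CPM in EV_R1881 (log2 difference 0.64 ± 0.067, adjusted p = 2.31e-10). In vehicle its difference was not called (-0.063 ± 0.068, adjusted p = 0.572). With R1881 WDR77 was called higher in P3 (0.74 ± 0.067) and siCtrl (0.55 ± 0.085), and was not called in EV (0.037 ± 0.069) or siWDR77 (0.11 ± 0.098). A part of WDR77 in the smaller responses was not tested.

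The order of the 4 groups of study 1 was EV_R1881, P3_R1881 and then the vehicle groups for all 8 responding genes. The gap between the means of EV_R1881 and P3_R1881 was larger than the sum of their SDs for 7 of them, and for PER1 it was smaller (6.68 against 7.12 CPM). The vehicle groups of EV and P3 lay within the sum of their SDs for SGK1, TSC22D3, TIPARP and ERRFI1. For KLF9 no neighbouring groups of either study differed by more than the sum of their SDs.

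**Figure D4:**
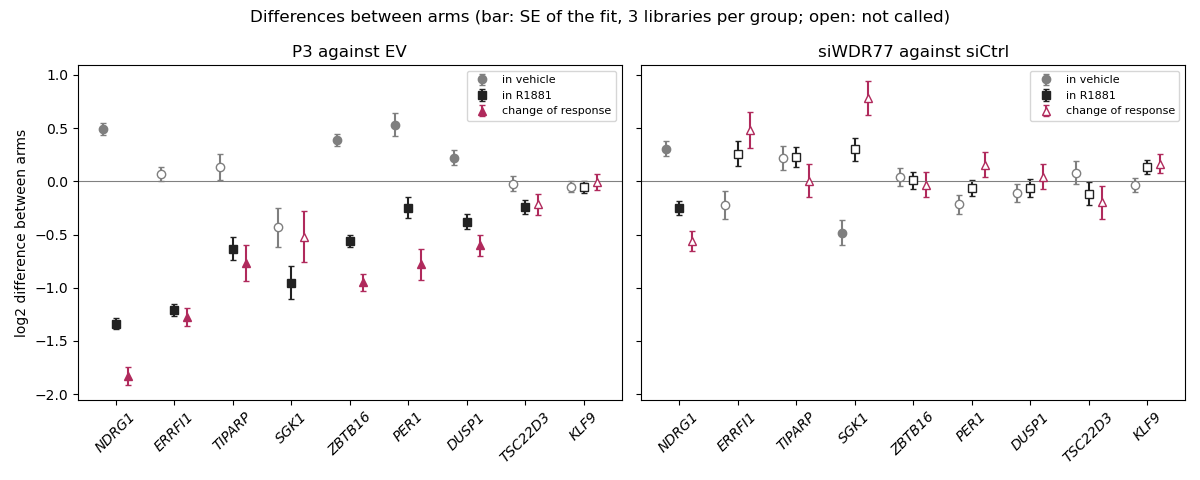
Log2 differences between arms for the 9 genes, P3 against EV on the left and siWDR77 against siCtrl on the right, in vehicle (circles), in R1881 (squares) and as the change of the R1881 response (triangles), with the SE of the fit as bars and open symbols where the adjusted p was not under 0.05. On the left 6 filled triangles lie between -1.83 and -0.60, and on the right all triangles are open.

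After WDR77 knockdown R1881 still raised 7 of the 9 genes, and SGK1 and NDRG1 were the genes that differed between the siRNA arms. In siWDR77 53.2% of all genes were called with R1881, 27.7% as higher and 25.5% as lower, and 7 of the 9 genes were called higher. The smallest of these rises was that of DUSP1 (log2 1.29 ± 0.086). TSC22D3 went from 38.6, 34.9 and 35.2 CPM to 40.8, 46.3 and 43.6 CPM, without overlap, and its log2 fold change of 0.26 ± 0.11 just missed the threshold (adjusted p = 0.0506).

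That miss turned into a call with no filter on low counts (adjusted p = 0.00757), with all 24 libraries in 1 fit (adjusted p = 0.0154) and without siCtrl_R1881 S22 or S8, siCtrl_vehicle S7, siWDR77_R1881 S10 or siWDR77_vehicle S23 (adjusted p from 0.00775 to 0.0487). KLF9 read 114, 118 and 114 CPM in siWDR77_vehicle and 122, 118 and 125 CPM in siWDR77_R1881 and was not called (adjusted p = 0.301).

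Between the siRNA arms, SGK1 was the only one of the 9 genes called lower without hormone. Its siWDR77_vehicle libraries read 5.63, 6.57 and 5.54 CPM, all below those of siCtrl_vehicle (8.05 to 8.50 CPM), and its siWDR77_R1881 libraries read 18.2, 19.7 and 19.4 CPM, all above those of siCtrl_R1881 (15.3 to 15.7 CPM). The direction thus differed between vehicle and hormone. In vehicle 1.53% of all genes were called, 0.682% as higher and 0.844% as lower, and SGK1 differed by -0.48 ± 0.12 (log2, adjusted p = 0.0395). In R1881 it differed by 0.30 ± 0.11 (adjusted p = 0.0935).

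The response of SGK1 was 3.22-fold in siWDR77 and 1.87-fold in siCtrl, a difference of 0.79 ± 0.16 on the log2 scale that did not pass the test (adjusted p = 0.0888). It did so with DESeq2 (0.77, adjusted p = 0.0153), with no filter on low counts (adjusted p = 0.0233) and without siCtrl_vehicle S35 (adjusted p = 0.0463). The vehicle call held without siCtrl_vehicle S35, siWDR77_R1881 S10 or siWDR77_R1881 S38 and was lost without any other 1 library of the study (adjusted p from 0.0504 to 0.197), with all 24 libraries in 1 fit (0.0599) and with no filter (0.0582).

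NDRG1 moved the other way. It read 91.2, 91.9 and 98.1 CPM in siWDR77_vehicle, all above siCtrl_vehicle (69.5 to 82.3 CPM), and 1201, 1284 and 1222 CPM in siWDR77_R1881, all below siCtrl_R1881 (1317 to 1571 CPM). Neither pair of groups overlapped. It was higher in vehicle by 0.31 ± 0.071 (log2, adjusted p = 0.0238) and lower in R1881 by a log2 difference of -0.25 ± 0.067 (adjusted p = 0.0204), where 7.22% of all genes were called, 3.9% as higher and 3.31% as lower. The vehicle call was lost without siCtrl_vehicle S21 or S7 or siWDR77_vehicle S37 or S9 (adjusted p from 0.077 to 0.169), and the R1881 call without siCtrl_R1881 S22 or S36 or siWDR77_R1881 S10 or S38 (adjusted p from 0.071 to 0.129).

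The response of NDRG1 was 13.2-fold after knockdown and 19.4-fold in siCtrl, a difference of -0.56 ± 0.097 (log2, adjusted p = 0.0569). That difference passed with DESeq2 (-0.58, adjusted p = 0.000847), with all 24 libraries in 1 fit (adjusted p = 0.00817), with no filter (adjusted p = 2.38e-07), without siCtrl_vehicle S35 (-0.64, adjusted p = 0.000215) and without siCtrl_R1881 S8 (-0.64, adjusted p = 0.00806). For the change of response none of the 9 and 0% of 17893 genes were called with edgeR, while 1484 genes, 3 of the 9 among them, had an unadjusted p under 0.05, and DESeq2 called 56 genes, 2 of the 9 among them.

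The hormone groups of siWDR77 and siCtrl lay within the sum of their SDs for TSC22D3, PER1, ZBTB16, DUSP1 and ERRFI1, and beyond it for SGK1, NDRG1 and TIPARP. The other 7 genes passed neither comparison of the siRNA arms. ERRFI1 read 38, 31.5 and 34 CPM in siWDR77_vehicle and 323, 346 and 396 CPM in siWDR77_R1881. These overlapped siCtrl in both treatments, and its change of response was 0.48 ± 0.17 (log2, adjusted p = 0.507), called only with no filter on low counts (adjusted p = 0.0016). TIPARP read 39.1, 40.1 and 42.3 CPM in siWDR77_R1881, all above siCtrl_R1881, with a difference of 0.23 ± 0.096 (adjusted p = 0.164). ZBTB16, PER1 and DUSP1 had changes of response of -0.032 ± 0.12, 0.16 ± 0.12 and 0.045 ± 0.12.

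The other genes of each pathway were counted from lists drawn up for this tissue and treatment, in the control arms EV and siCtrl, which share no library. Of all genes 24.9% rose and 26.4% fell in EV, and 25.7% rose and 25.4% fell in siCtrl. The counts of every list below are to be read beside these shares, as a description only. The lists were chosen with earlier results of these data known, so their counts are not independent of the data. Of 25 other glucocorticoid-induced genes tested, 18 rose and 3 fell with R1881 in EV, and 16 rose and 2 fell in siCtrl, with median log2 fold changes of 0.87 and 0.44. FKBP5, a chaperone of steroid receptors, rose most (log2 5.07 ± 0.057 in EV and 6.06 ± 0.18 in siCtrl). NFKBIA, the inhibitor of NF-kappa-B, rose by 1.65 ± 0.069 and 1.56 ± 0.078, and KLF15, a metabolic zinc finger factor, by 1.30 ± 0.10 and 2.0 ± 0.12. The genes that fell in EV, named after their values were seen, were PIK3R1, a PI3 kinase subunit (-1.08 ± 0.056), the metallothionein MT2A (-0.90 ± 0.10) and CNKSR3 (-0.64 ± 0.13).

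**Figure D5:**
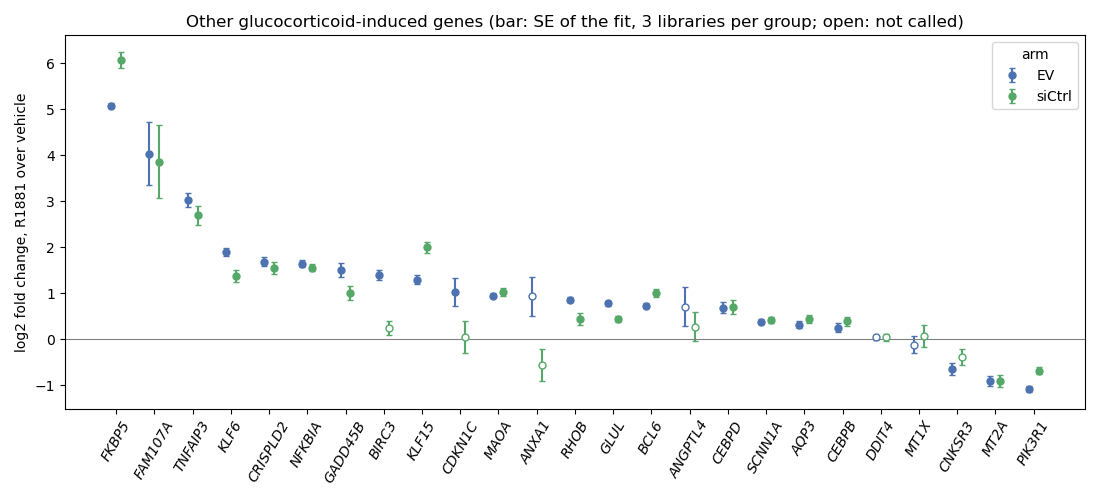
Log2 fold change of R1881 over vehicle for 25 other glucocorticoid-induced genes in EV and siCtrl, ordered by the value in EV, with the SE of the fit as bars and open points where the adjusted p was not under 0.05. FKBP5 leads at 5.07 and 6.06, most points lie above 0, and MT2A and PIK3R1 lie below 0 in both arms.

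Around SGK1, 8 of 13 kinases, activators and substrates rose in EV and 1 fell, and 9 rose and 2 fell in siCtrl. MTOR, the kinase of the complexes that activate SGK1, rose by 1.62 ± 0.051 in EV and 1.97 ± 0.067 in siCtrl (log2), and NEDD4L, a ubiquitin ligase that SGK1 phosphorylates, by 1.04 ± 0.048 and 0.98 ± 0.053. The relatives of NDRG1 did not share its rise. NDRG2 fell in both arms (-0.45 ± 0.061 and -0.31 ± 0.066), and NDRG3 rose slightly in EV (0.28 ± 0.054) and fell slightly in siCtrl (-0.23 ± 0.064).

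Of the TSC22 family, TSC22D1 rose more than TSC22D3 in value, by 1.6 ± 0.049 in EV and 1.78 ± 0.072 in siCtrl (log2), and 2 of 3 relatives were called higher in EV and 3 of 3 in siCtrl. Clock genes moved in both directions, with 4 of 20 higher and 9 lower in EV and 2 of 19 higher and 7 lower in siCtrl. PER3, a relative of PER1, fell (-1.11 ± 0.089 and -0.65 ± 0.099), as did the clock output factor DBP (-1.19 ± 0.15 and -1.66 ± 0.19), while BHLHE40, a repressor of the clock, rose (1.33 ± 0.067 and 1.31 ± 0.13). PER1 and PER3 thus moved in opposite directions in the same libraries.

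Of 10 KLF relatives, 3 rose and 2 fell in EV and 3 rose and 3 fell in siCtrl. KLF5, a regulator of epithelial proliferation, rose by 2.12 ± 0.16 and 2.32 ± 0.13 (log2), and KLF4, a differentiation factor, rose in EV (1.77 ± 0.12) and was at 0.72 ± 0.28 in siCtrl (adjusted p = 0.056). Of 9 MAP kinase phosphatases, 5 rose and 1 fell in EV and 4 rose and none fell in siCtrl, led by DUSP4 (1.12 ± 0.10 and 1.55 ± 0.17), DUSP5 (1.67 ± 0.32 and 2.10 ± 0.33) and DUSP8 (0.95 ± 0.10 and 0.61 ± 0.098).

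ERRFI1's partners included its target EGFR, the epidermal growth factor receptor, which rose by 1.05 ± 0.062 in EV and 1.29 ± 0.058 in siCtrl (log2), and LRIG1, another inhibitor of these receptors, which rose by 1.97 ± 0.055 and 2.45 ± 0.083. Of 15 genes of that list 6 rose and 2 fell in EV, and 7 rose and 4 fell in siCtrl. Those that fell in EV, named after their values were seen, also fell in siCtrl. They were LRIG3 (-1.24 ± 0.12 in EV and -1.54 ± 0.17 in siCtrl) and the receptor gene ERBB2 (-0.31 ± 0.050 and -0.75 ± 0.064). For TIPARP, 2 of 7 genes of the aryl hydrocarbon receptor pathway rose and 2 fell in EV, and 1 rose and 2 fell in siCtrl, with ARNT2, a partner of that receptor, falling in both (-0.68 ± 0.091 and -1.05 ± 0.12) and NQO1, a target of the pathway, rising by 0.32 ± 0.089 and 0.38 ± 0.11. PARP1, another ADP-ribosyltransferase, fell in EV (-0.53 ± 0.049) and was at -0.11 ± 0.064 in siCtrl (adjusted p = 0.157).

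Of 7 corepressor partners of PLZF, 3 rose and 3 fell in EV, beside 51.4% of all genes called there, and 2 rose and 1 fell in siCtrl. NCOR1 rose by 0.50 ± 0.049 and 0.27 ± 0.057, SIN3A by 0.29 ± 0.056 and 0.57 ± 0.071, and BCOR fell by a log2 change of -0.20 ± 0.055 and -0.34 ± 0.064.

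Without siCtrl_vehicle S35 the call in siCtrl changed for 10 of the 116 genes of these lists, and no called gene of them changed sign. Of the genes named above, KLF4 was then called higher (1.16 ± 0.13, adjusted p = 9.30e-09), PARP1 lower (-0.20 ± 0.053, adjusted p = 0.00178) and CNKSR3 lower (-0.47 ± 0.18, adjusted p = 0.0305). NR3C2, a fall of 0.27 with all libraries, was at -0.18 ± 0.11 (adjusted p = 0.188). The other glucocorticoid-induced genes then counted 15 that rose and 3 that fell, with a median of 0.53.

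The change of response in P3 was called in both directions among the lists, beside 11.5% of all genes called positive and 11.1% negative. The lists are small and were chosen with earlier results of these data known, and none was tested as a set. Of the 25 other glucocorticoid-induced genes 14 had a negative change of response and 3 a positive one, with a median of -0.47 beside 0.017 over all genes. FKBP5 changed by -1.54 ± 0.071, LRIG1 by -1.03 ± 0.076, MTOR by -0.75 ± 0.071 and TSC22D1 by -0.74 ± 0.068. Of the genes around SGK1 5 of 13 were called negative and none positive, of the ERBB list 5 of 15 negative and 2 positive, of the KLF relatives 3 of 10 negative and 2 positive, and of the phosphatases 2 of 9 negative and none positive. Clock genes went more to the other side in count, with 6 of 20 positive and 3 negative, and of the aryl hydrocarbon receptor pathway 2 of 7 were positive and none negative. Among the PLZF partners 1 of 7 was called, as negative. PER3, which fell in EV, changed by 0.88 ± 0.12 in the opposite direction to PER1.

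The genes most like SGK1 and NDRG1 were taken by Pearson's r of log2 CPM, centred within each study, over the 24 libraries and 14221 genes, as a description, since all libraries share the split by hormone. For SGK1 they were APP, the amyloid precursor protein gene (r = 0.968), the amino acid transporter gene SLC38A2 (0.958) and WBP1L (0.955). APP read 383 ± 8.72 CPM in EV_vehicle, 1249 ± 23.1 in EV_R1881, 339 ± 16.3 in P3_vehicle and 660 ± 18.1 in P3_R1881, the same order of these 4 groups as SGK1. In study 2 the likeness was not complete: APP read 981 ± 47.4 CPM in siCtrl_R1881 and 949 ± 0.896 in siWDR77_R1881, whereas SGK1 was higher in the latter in mean. For NDRG1 they were RP1-288H2.2 (0.997), the tubulin gene TUBA3D (0.996) and the receptor phosphatase gene PTPRM (0.996). RP1-288H2.2 had means of 0 CPM in EV_vehicle, 0.0166 CPM in siCtrl_vehicle and 0.0873 CPM in siWDR77_vehicle. Its r thus rests in part on the pseudocount of 0.5 used for the log2 values. PTPRM read 50.2 ± 1.05, 311 ± 8.96, 66.1 ± 4.17 and 184 ± 10.2 CPM in the same 4 groups as given for APP, also higher in P3_vehicle than in EV_vehicle. In study 2 PTPRM read 429 ± 6.20 CPM in siCtrl_R1881 and 472 ± 10.4 in siWDR77_R1881, whereas NDRG1 was lower in the latter.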

How the data were processed

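The authors deposited raw counts of reads for each gene, from poly(A) libraries per the labels' protocols. The submitters' processing notes name bcl2fastq 2.20, STAR 2.7.9a, featureCounts, Subread 1.6.4 and the build GRCh38.p7. Neither the strand setting nor the annotation used is given in the sources used here. The columns of P3_R1881 also carry the word siRNA and were matched by sample number to titles that name P3 alone.

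Each study's 12 libraries were fitted with edgeR 4.0.16 in R 4.3.3 (TMM scaling, filterByExpr by group, robust quasi-likelihood F test, a mean per group, no covariate), with Benjamini-Hochberg adjustment over all genes tested in each of 10 comparisons. SE is the log2 fold change over the root of F. CPM uses TMM-scaled library sizes within a study, so levels were not compared between studies. Libraries of a group were not within sampling noise of each other. At a count of 0 the upper limit is 3 counts (0.124 CPM at the greatest depth), for counting error only.

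Coordinates and exon lengths came from GENCODE 29, in which 58381 of 60649 IDs were found. The alternatives were RLE size factors, no filter, DESeq2 1.42.0, a replicate block, all 24 libraries in 1 fit, each library left out in turn, and unscaled totals for levels. Data were simulated for the R1881 comparisons in EV and siCtrl (17256 and 17319 genes), with 200 genes changed. Of those changed 1.5-fold, 78.4% and 69.7% were recovered, and of those changed 2-fold, 89.2% and 88.2%. In the measured data 51.4% and 51.1% of all genes were called, far more than were changed in the simulation. The recovery rates may therefore not hold for the measured data. Genes named are the 9, WDR77, NR3C1, NR3C2, PGR, the 2 list genes with the smallest adjusted p in each control arm and the 3 genes most like SGK1 and NDRG1. A gene that this rule would also name is not reported here. The 9 genes and the lists were chosen with earlier results of these data known.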

Additional observations from a re-analysis of the deposited data

Results flagged for a closer look

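The response to R1881 differed between P3 and EV by a test of the difference itself, edgeR's quasi-likelihood test of the interaction, for 6 of the 9 genes, all with a smaller response in P3. By the same test 11.1% of all genes were called negative. Of 1170 other genes raised at least 2-fold by R1881 in siCtrl 63.0% were called negative, so a smaller response was not particular to the 9. The log2 change of response was -1.83 for NDRG1, -1.28 for ERRFI1, -0.95 for ZBTB16, -0.78 for PER1, -0.77 for TIPARP and -0.60 for DUSP1, with adjusted p from 4.40e-19 (NDRG1) to 0.000502 (TIPARP). In each of these 6 genes all 3 P3_R1881 libraries lay below all 3 EV_R1881 libraries. For NDRG1, ZBTB16, PER1 and DUSP1 the P3_vehicle libraries also lay above those of EV_vehicle. The share of all genes whose libraries separated in this way is not given here. By the test, 18.9% of all genes were called lower in P3 than in EV with R1881, and 7.93% higher in vehicle. The vehicle call of DUSP1 was lost under 7 alternatives (adjusted p from 0.0541 to 0.11), and the R1881 call of PER1 with DESeq2 and without each of 3 single libraries (adjusted p from 0.0505 to 0.199). For ERRFI1 and TIPARP the vehicle libraries of the arms overlapped.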

How the results depend on the processing

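No alternative reversed the direction of a gene of the set that was called. Between the siRNA arms, the change of response called 0 genes in the main fit, and 56 genes and 2 of the 9 with DESeq2, 40 and 1 with all 24 libraries in 1 fit, 112 and 3 with no filter, and 16 and 1 (NDRG1, adjusted p = 0.0164) with the replicate block. In vehicle, 273 genes and 2 of the 9 became 467 genes with DESeq2, 491 and 1 with all 24 libraries, and 422 and 1 with no filter. In R1881, 1 of the 9 became 2 with no filter. Leaving out 1 library gave 0 to 43 genes and 0 to 2 of the 9 for that change of response, 91 to 478 genes and 0 to 2 of the 9 in vehicle, and 587 to 1983 genes and 0 to 1 of the 9 in R1881, while P3 against EV in vehicle ran from 1344 genes (without P3_vehicle S5) to 3176. RLE size factors changed no call of the 9. The block by runs of 14 sample numbers rests on no label: 19 of 24 libraries correlated best with their own run, but the median r of a run was 0.033 and 0.043 and not every pair exceeded 0.1. It also called TSC22D3 in siWDR77 (adjusted p = 0.00831) and changed no other call of the 9. Unscaled totals moved 43 of 72 group means by more than 1 SD. With 3 libraries per group, calls near the threshold changed when 1 library was left out. Causes were not tested.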
